A study of Mus musculus and Homo sapiens with 32 samples.

Results

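The genes described are the nuclear subunits of the mitochondrial respiratory chain and ATP synthase, followed through the kidneys of a mouse obstruction experiment on Pcmt1. They were chosen by name and annotation alone: protein-coding genes of the obstruction count table called Nduf (a, b, c, s or v with a number), Sdha to Sdhd, Uqcr, Cyc1, Cox4 to Cox8, or Atp5. This gave 90 of the 57180 genes in the table, of which 39 belong to complex I, 4 to complex II, 9 to complex III, 19 to complex IV and 19 to complex V. The rule uses no measured value. Of the 90, 85 had enough counts to be tested. Ndufb11b and Cox7b2 had no count in any library, and Cox8b, Cox8c and a second Atp5po model fell below the minimum.

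The respiratory chain sits in the mitochondrial inner membrane. Complexes I (NADH dehydrogenase) and II (succinate dehydrogenase) pass electrons to ubiquinone, complex III passes them to cytochrome c, complex IV passes them to oxygen, and complex V uses the resulting proton gradient to make ATP. Complexes I, III, IV and V mix subunits from the nucleus with a few encoded in mitochondrial DNA, whereas all subunits of complex II are nuclear. The proximal tubule of the kidney is rich in mitochondria and depends on oxidative ATP for solute uptake.

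Kidneys of 6 groups were sequenced, with 3 libraries in each. They were Pcmt1 tKO kidneys after unilateral ureteral obstruction (UUO) with LY2109761, an inhibitor of TGF-β receptor kinases; Pcmt1 fl/fl kidneys after UUO with LY2109761; tKO kidneys after UUO with DMSO; fl/fl kidneys after UUO with DMSO; tKO kidneys after sham surgery with DMSO; and fl/fl kidneys after sham surgery with DMSO. UUO ties off a ureter and is a standard model of kidney fibrosis, and Pcmt1 encodes the repair enzyme protein-L-isoaspartate methyltransferase. The labels do not spell out tKO, and they give no Cre driver, age, dose or day. Nor do they say whether libraries of a group come from separate animals, so p-values measure the spread between these libraries, which may be technical.

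Libraries held between 13015669 and 19565376 counts. Levels are given as CPM, the counts relative to library size after scaling by trimmed mean of M-values (TMM), and levels compared between genes as RPKM, the same per kilobase of exon. Pcmt1 stood at 23.1 to 28 CPM in tKO UUO with LY2109761, 25.7 to 39.0 CPM in fl/fl UUO with LY2109761, 24.7 to 26.1 CPM in tKO UUO and 35.3 to 41.4 CPM in fl/fl UUO. In sham kidneys it stood at 49.3, 22.7 and 24.3 CPM in the 3 tKO libraries, against 48.9, 43.4 and 42.8 CPM in the 3 fl/fl libraries. The library labelled tKO sham replicate 1 thus had Pcmt1 at the fl/fl level. The library labelled fl/fl UUO with LY2109761 replicate 3, at 25.7 CPM, lay within the tKO range. For each comparison that rests on either library, the numbers of members that edgeR called over all complexes are also given without it. Counts of separate libraries, DESeq2 counts and counts at an unadjusted p include both, and the last have no share of all genes beside them. Mitochondrially encoded genes took 33.7% to 69.5% of counts in tKO sham and 30.8% to 35.5% in fl/fl sham, against 7.43% to 18.8% in the UUO libraries. The scaling therefore matters, and it is named wherever it changes a call.

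Short upstream sequences are shown for 4 members on which the results below turn or which carry the motifs searched: Atp5f1b and Atp5f1e, which move apart from each other between groups, Sdhd of complex II, and Cox6a1, which holds both motifs. Each is the 250 bases before the gene's RefSeq start on its own strand (build GRCm38.p6), in lower case. RefSeq starts can differ from GENCODE M21 gene bounds, and the windows of Atp5f1b, Atp5f1e and Cox6a1 reach into those bounds. Capitals mark a match on either strand to GCGCATGCG, the letters of a nuclear respiratory factor 1 (NRF1) site, or CCGGAAG, those of an ETS-family site of the kind GABP binds. Overlapping matches on opposite strands run together.

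Atp5f1b (complex V, ATP synthase β subunit, chr10:128083057-128083306, + strand): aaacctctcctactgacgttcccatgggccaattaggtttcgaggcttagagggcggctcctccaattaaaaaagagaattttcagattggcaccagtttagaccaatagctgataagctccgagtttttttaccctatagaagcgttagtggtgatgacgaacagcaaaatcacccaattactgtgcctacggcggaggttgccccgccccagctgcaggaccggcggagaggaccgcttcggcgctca
Atp5f1e (complex V, ATP synthase ε subunit, chr2:174464102-174464351, - strand): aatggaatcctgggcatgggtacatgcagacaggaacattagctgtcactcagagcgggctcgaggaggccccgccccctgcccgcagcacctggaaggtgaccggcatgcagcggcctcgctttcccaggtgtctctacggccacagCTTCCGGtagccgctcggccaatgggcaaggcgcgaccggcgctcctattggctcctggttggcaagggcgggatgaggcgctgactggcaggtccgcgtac
Sdhd (complex II, membrane anchor, chr9:50603850-50604099, - strand): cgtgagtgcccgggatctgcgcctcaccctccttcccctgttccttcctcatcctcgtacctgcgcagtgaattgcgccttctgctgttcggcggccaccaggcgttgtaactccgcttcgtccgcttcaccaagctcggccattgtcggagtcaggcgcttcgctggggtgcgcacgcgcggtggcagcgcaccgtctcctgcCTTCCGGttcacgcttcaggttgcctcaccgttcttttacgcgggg
Cox6a1 (complex IV, chr5:115348959-115349208, - strand): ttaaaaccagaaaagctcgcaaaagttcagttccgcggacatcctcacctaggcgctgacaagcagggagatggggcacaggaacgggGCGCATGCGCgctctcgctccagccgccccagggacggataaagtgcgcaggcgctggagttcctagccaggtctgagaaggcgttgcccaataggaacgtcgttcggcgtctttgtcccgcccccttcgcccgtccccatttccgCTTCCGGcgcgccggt

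A window of the longer RefSeq form (250 bases before to 50 after the start) was at hand for 70 of the 90 members. The NRF1 letters were in 8 of these 70 (11.4%), against 527 of the 27025 RefSeq gene symbols with a window (1.95%). The ETS letters were in 16 of 70 (22.9%), against 2683 of 27025 (9.93%). By complex, the ETS letters were in 4 of 34 windows of complex I, 2 of 3 of complex II, 2 of 5 of complex III, 3 of 13 of complex IV and 5 of 15 of complex V. These are letter matches, not measured binding. On GRCm38 (GENCODE M21), the gene of Atp5f1b spans chr10:128083273-128090391 on the + strand and that of Atp5f1e chr2:174461072-174464105 on the - strand. Sdha spans chr13:74322254-74350280 and Ndufs1 chr1:63143596-63176833, both on the - strand.

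In fl/fl sham kidneys the members spanned a wide range of levels per length. Cox8a of complex IV led at 649 ± 37.4 RPKM (SD, n = 3), followed by Cox6a1 of the same complex at 573 ± 22.8 RPKM, and these 2 did not overlap between libraries. Complex I was led by Ndufa1 at 442 ± 31.7 RPKM, complex V by Atp5mc3, a gene for the proton-carrying c subunit, at 294 ± 6.04 RPKM. Atp5f1b, next in complex V at 275 ± 17.2 RPKM, overlapped Atp5mc3 between libraries. Complex II had no member at either end: Sdhd stood at 188 ± 7.36 RPKM, Sdhb at 168 ± 4.89 RPKM, Sdhc at 99.7 ± 7.10 RPKM and Sdha at 86.5 ± 4.52 RPKM. Among the members tested, the lowest were Cox4i2, Atp5mc2, Cox6a2, Ndufa4l2 and Cox6b2, between 1.39 and 1.85 RPKM. Atp5mc2 has near-identical copies elsewhere in the genome, so its level is uncertain. RPKM here divides by all exonic bases of a gene, as the deposited table does.

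Obstruction lowered nearly the whole nuclear chain in fl/fl kidneys. The summed level of all members fell to 3767, 4256 and 5218 RPKM (lowest, median, highest) in fl/fl UUO, against 10887, 11438 and 11494 RPKM in fl/fl sham, a ratio of group means of 0.392. All 5 complexes moved together: the ratio of UUO to sham was 0.373 for complex I, 0.474 for complex II, 0.364 for complex III, 0.403 for complex IV and 0.407 for complex V, and in none of them did a UUO library reach the sham range. The size of the fall depends on the TMM scaling. With the deposited FPKM the ratio was 0.653 for all members and 0.624, 0.791, 0.607, 0.673 and 0.678 for complexes I to V, again without overlap. In bulk tissue, fewer cells of a type and less RNA per cell cannot be told apart.

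**Figure D1:**
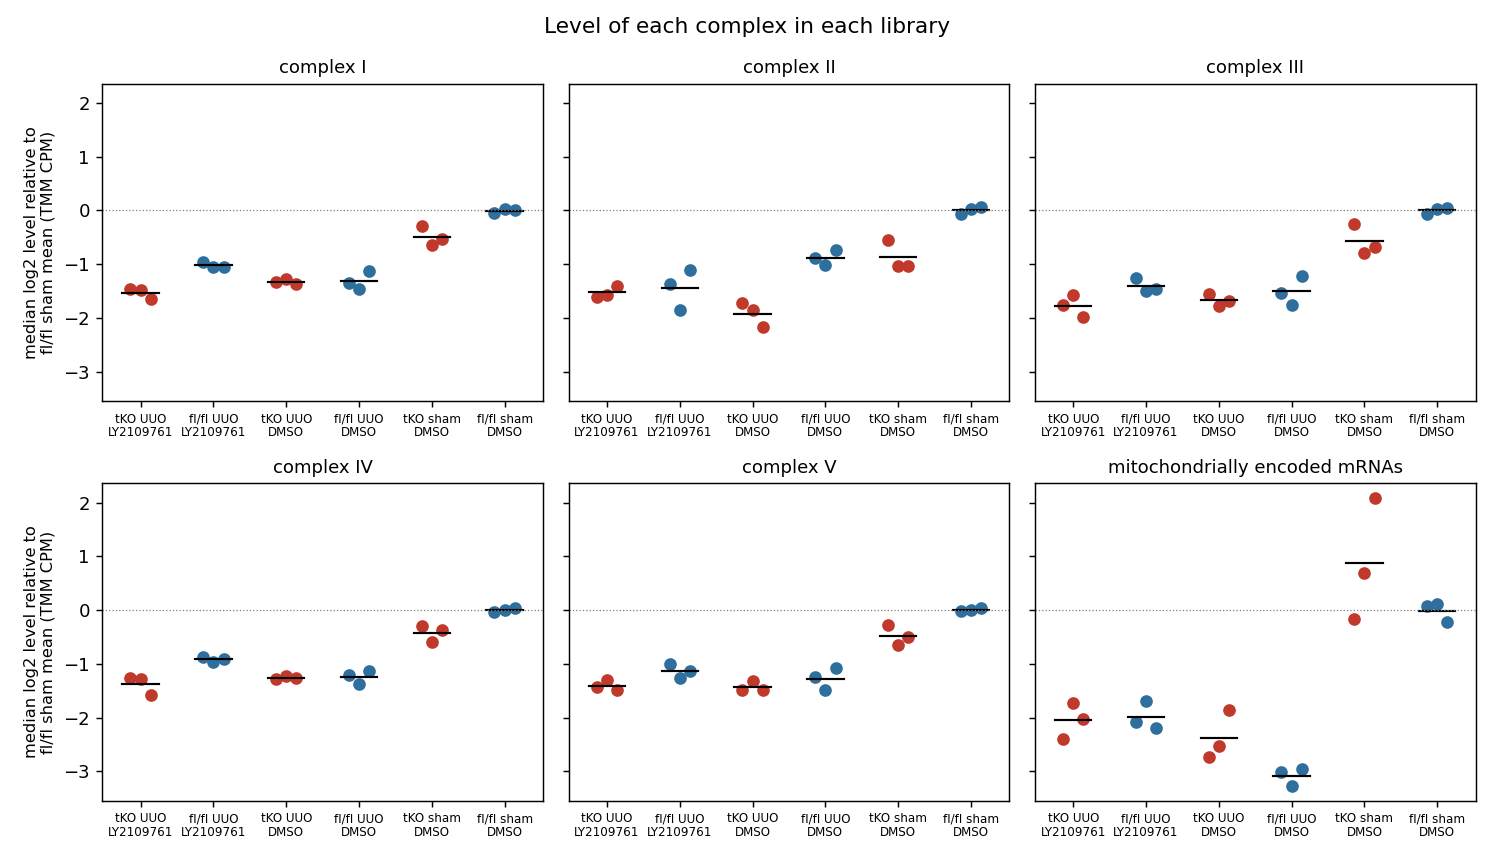
Median log2 level of the members of each complex, and of the mitochondrially encoded mRNAs, relative to the fl/fl sham mean (vertical axis, from TMM-scaled CPM), in each library (points) with group means (lines), by group. The library labelled tKO sham replicate 1 is the highest of its group in each nuclear complex and the lowest of it in the mitochondrial mRNAs.

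By gene, 81 of the 85 members tested were lower and 1 was higher in fl/fl UUO than in fl/fl sham (edgeR quasi-likelihood test, Benjamini-Hochberg adjusted p under 0.05 over all 19256 genes tested). Among all genes, 18.7% were called lower, 20.9% higher and 39.6% in either direction. UUO and sham libraries were fully separate in 82 members that lay lower and 2 that lay higher, beside 26.0% and 28.8% of all genes. The median log2 fold change of the members was -1.30, beside 0.02 over all genes. Complex I had 37 of 38 lower, complex II 4 of 4, complex III 9 of 9, complex IV 14 of 16 and complex V 17 of 18. Scaling to column totals, without TMM, moved the median of all genes to 0.76 and that of the members to -0.56. It left 29 members lower and 2 higher, beside 906 and 8544 of all 19256 genes. That setting turned Sdha to 0.02 and ended many of the calls named below, and scaling to the total of nuclear genes ended those of Sdha, Sdhd and Ndufv2.

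Within complex I, the small membrane-arm subunit Ndufc1 moved most. It had 24.1, 20.2 and 29.6 CPM in fl/fl UUO, against 100, 121 and 137 CPM in fl/fl sham, a log2 fold change of -2.28 ± 0.17 (SE; edgeR adjusted p = 1.74e-07). The groups lie far apart. Of the core subunits that carry electrons, Ndufv1, which binds NADH, fell by 1.59 on the log2 scale (edgeR adjusted p = 2.27e-06). Ndufs1, the largest iron-sulfur subunit, fell by 0.76 (edgeR adjusted p = 0.0012) and Ndufv2 by 0.74 (edgeR adjusted p = 0.00949). The call of Ndufv2 ended without fl/fl sham replicate 3. All 7 core subunits encoded in the nucleus were lower.

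In complex II the iron-sulfur subunit Sdhb moved most, to 129, 104 and 151 CPM in fl/fl UUO, against 434, 453 and 429 CPM in fl/fl sham (log2 fold change -1.78 ± 0.16, edgeR adjusted p = 9.28e-07). Every UUO library lay below every sham library. The flavoprotein Sdha, with 315, 266 and 354 CPM in UUO and 482, 517 and 534 CPM in sham, moved less, at -0.71 ± 0.21 (edgeR adjusted p = 0.0119). The 2 membrane anchors lay near Sdha, with Sdhc at -0.75 ± 0.11 and Sdhd at -0.97 ± 0.28 (edgeR adjusted p = 4.9e-05 and 0.0121). Without fl/fl UUO replicate 2, the calls of Sdha and Sdhd ended.

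In complex III, Uqcr11, a small subunit, had a log2 fold change of -1.92 ± 0.19 (edgeR adjusted p = 1.88e-06). The catalytic subunits cytochrome c1 (Cyc1) and the Rieske iron-sulfur protein (Uqcrfs1) each fell by 1.55 (edgeR adjusted p = 6.83e-06 and 8.87e-06), and the core protein Uqcrc1 by 1.32 (edgeR adjusted p = 3.41e-06). In complex IV the common isoform Cox4i1 fell by 1.36 (edgeR adjusted p = 4.07e-05), Cox5a by 1.17 (edgeR adjusted p = 0.0114) and Cox5b by 1.39 (edgeR adjusted p = 7.78e-07). The call of Cox5a ended without fl/fl UUO replicate 2. Ndufa4, named for complex I but often assigned to complex IV, fell by 1.44 (edgeR adjusted p = 0.000391).

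In complex V the ε subunit Atp5f1e moved most. It had 53.4, 50.3 and 111 CPM in fl/fl UUO, against 379, 375 and 335 CPM in fl/fl sham (log2 fold change -2.35 ± 0.26, edgeR adjusted p = 4.88e-06). Replicate 3 of fl/fl UUO was the high library of its group and still lay below sham. The catalytic β subunit Atp5f1b, at 846, 692 and 928 CPM in UUO and 1794, 1891 and 2031 CPM in sham, moved by -1.21 ± 0.29 (edgeR adjusted p = 0.00361), and the α subunit Atp5f1a by -0.98 ± 0.17 (edgeR adjusted p = 0.000288). Of the 3 c-subunit genes, which encode the same mature protein, Atp5mc1 fell by 1.38 and Atp5mc3 by 1.61 (edgeR adjusted p = 1.88e-05 and 0.000386), whereas Atp5mc2 was at -0.31 (edgeR adjusted p = 0.319).

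The 3 members that did not pass were Atp5mc2, Cox7a2l, linked to supercomplex assembly, at -0.56 (edgeR adjusted p = 0.0681), and Ndufa4l2, a paralogue of Ndufa4 that is induced by hypoxia, at 0.66 (edgeR adjusted p = 0.14). The member that rose was Cox6b2, the testis isoform of a complex IV subunit, with 8.85, 9.46 and 13 CPM in fl/fl UUO against 5.97, 4.73 and 4.89 CPM in fl/fl sham (log2 fold change 1.01 ± 0.26, edgeR adjusted p = 0.00605). Its groups do not overlap, but its level stayed far under that of the common isoform, with 0.0502 to 0.0652 counts per count of Cox6b1 in UUO and 0.0107 to 0.0150 in sham. The heart and muscle isoform Cox7a1 moved the other way, at 1.55, 2.09 and 3.22 CPM in UUO and 12.1, 13.1 and 16.5 CPM in sham (log2 fold change -2.61 ± 0.32, edgeR adjusted p = 1.44e-05).

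In tKO kidneys, too, most members were lower after obstruction. The summed member level was 3743, 3997 and 4053 RPKM (lowest, median, highest) in tKO UUO, against 6768, 6976 and 9315 RPKM in tKO sham, a ratio of 0.511. With the deposited FPKM that ratio was 1.03, and the groups overlapped. By edgeR, 68 of 85 members were lower and 2 higher, beside 19.4% and 21.6% of all genes (41.0% in either direction), and the median log2 fold change was -0.94. Libraries did not overlap in 72 members lower and 2 higher, beside 22.8% and 26.0% of all genes. Complexes I to V had 31 of 38, 4 of 4, 8 of 9, 10 of 16 and 15 of 18 members lower. This comparison is the one most open to the choice of scaling. With column totals the median of all genes moved to 1.06 and the member median to 0.08. Under that scaling 2 members were called lower and 10 higher, beside 715 and 11678 of all 19256 genes. Without the library labelled tKO sham replicate 1, 64 members were lower and 2 higher, with 30, 3, 8, 9 and 14 lower in complexes I to V. Among all 19742 genes then tested, 3561 were lower and 4177 higher.

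Ndufc1 again led complex I at -1.85 ± 0.17 (edgeR adjusted p = 9.88e-07) and Cox7a1 complex IV at -2.18 ± 0.32 (edgeR adjusted p = 7.19e-05). Atp5f1b led complex V, with 308, 241 and 244 CPM in tKO UUO against 1485, 660 and 707 CPM in tKO sham (log2 fold change -1.84 ± 0.30, edgeR adjusted p = 0.000148). The 1485 CPM belong to the library labelled tKO sham replicate 1, and the other 2 sham libraries still lie above all 3 UUO libraries. Sdha to Sdhd stood at -0.81, -1.56, -0.54 and -0.91, each called lower by edgeR (adjusted p = 0.00521, 2.93e-06, 0.000854 and 0.0167). The call of Sdhd ended without tKO UUO replicate 3, with totals of nuclear genes, and likewise when the library labelled tKO sham replicate 1 was dropped. With column totals Sdha, Sdhc, Sdhd and Cox4i1 turned to values above 0. The 2 members that rose were Cox6b2 at 1.78 ± 0.27 and Ndufa4l2 at 0.91 ± 0.35 (edgeR adjusted p = 7.89e-05 and 0.0459). The call of Ndufa4l2 ended when any of the 6 libraries was left out.

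**Figure D2:**
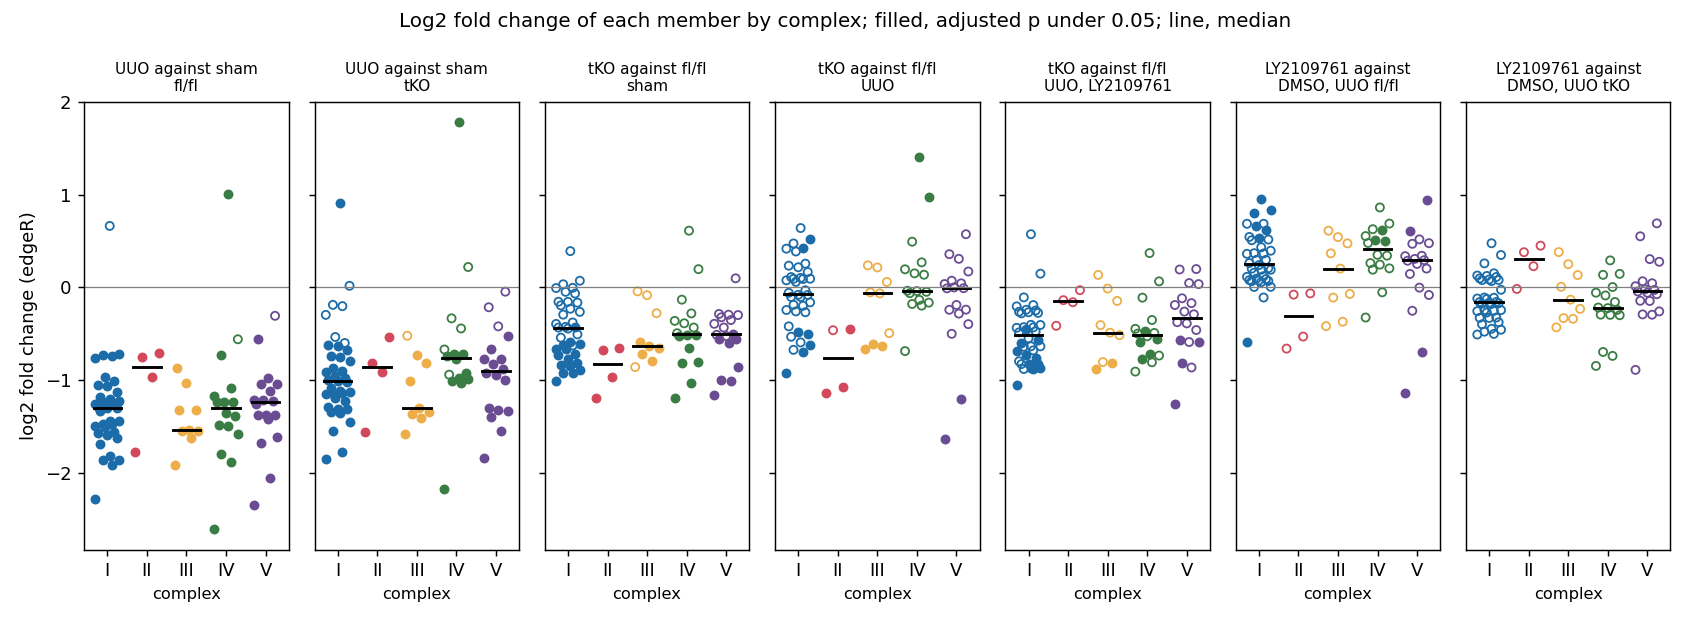
Log2 fold change of each of the 85 members tested (points) by complex in the comparisons named, with the median of each complex. In UUO against sham of both genotypes the points lie mostly below 0, whereas in tKO against fl/fl UUO they spread to both sides.

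Whether obstruction acted differently by genotype was tested directly. By edgeR, 0 of 85 members had a genotype by UUO interaction (all genes: 0.0104% higher, 0.0312% lower, 0.0415% in either direction), and 25 had an unadjusted p under 0.05. DESeq2 also called 0 members, beside 217 higher and 195 lower of all 19256 genes. The median interaction was 0.39, with 80 of 85 members above 0, which is the side of a smaller fall in tKO. Without the library labelled tKO sham replicate 1, 8 members were called higher and 0 lower, while the calls among all 19742 genes then tested numbered 216 higher and 77 lower, against 2 and 6 of 19256 with it.

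The mitochondrially encoded part of the chain was also lower after obstruction. The 13 mitochondrial mRNAs had a median log2 fold change of -3.09 in fl/fl UUO against sham, with 12 of 13 called lower, and -3.49 in tKO UUO against sham, with 13 of 13. Their summed RPKM in fl/fl kidneys had a ratio of UUO to sham of 0.129, against 0.392 for the nuclear members. With the deposited FPKM these ratios were 0.215 and 0.653. Mitochondrial mRNA counts per member count were 8.95 to 17.3 in tKO UUO and 5.08 to 6.67 in fl/fl UUO, and 20.8 to 134 in tKO sham and 15.4 to 20.2 in fl/fl sham. The 134 belongs to tKO sham replicate 3, in which mitochondrially encoded genes took 69.5% of counts. With LY2109761 the values were 12.1 to 18.8 in tKO UUO and 9.29 to 14.3 in fl/fl UUO. Summed RPKM of the mitochondrial mRNAs was higher without overlap in tKO than in fl/fl UUO (ratio 1.64) and with the drug in fl/fl UUO (1.94). The nuclear sums overlapped in both, at 0.891 and 1.19. The mitochondrial sums overlapped for the drug in tKO (1.29) and for tKO against fl/fl with the drug (1.09).

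As a share of nuclear counts, which the mitochondrial reads cannot move, the members took 1.11% to 1.22% in tKO UUO with LY2109761 and 1.35% to 1.53% in fl/fl UUO with LY2109761. They took 1.11% to 1.21% in tKO UUO and 1.19% to 1.57% in fl/fl UUO, and 1.69% to 2.44% in tKO sham and 2.69% to 2.87% in fl/fl sham. All 12 UUO libraries lay below all 6 sham libraries, and all 3 tKO sham libraries below all 3 fl/fl sham libraries.

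**Figure D3:**
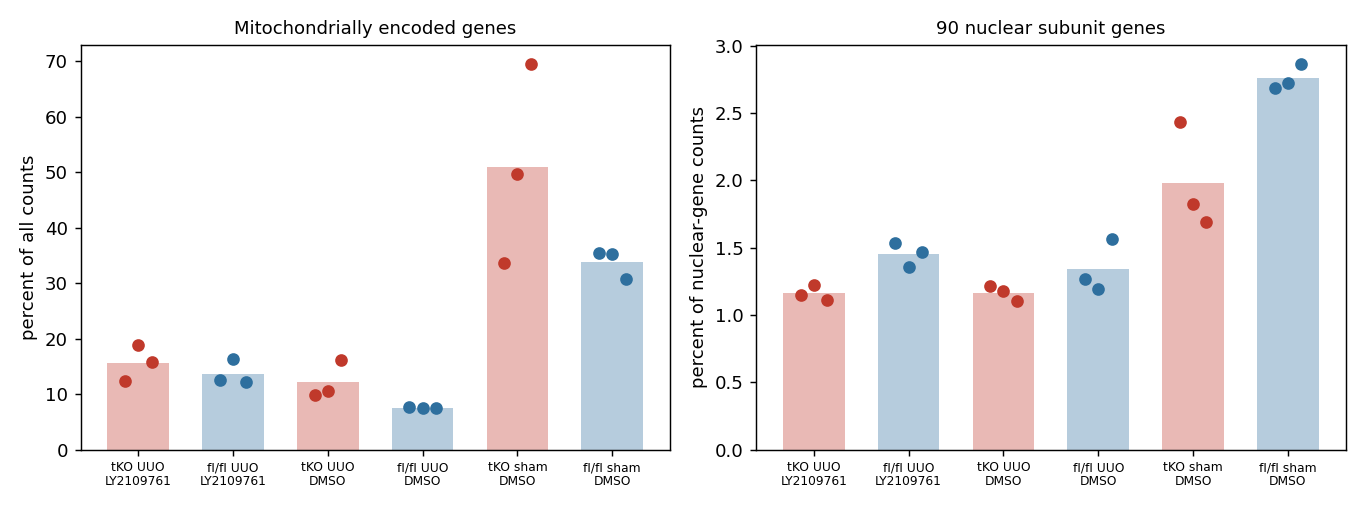
Mitochondrially encoded genes as a percent of all counts and nuclear members as a percent of nuclear counts, one point per library, by group. The tKO sham libraries spread from 33.7% to 69.5% in the mitochondrial share and lie below the fl/fl sham libraries in the member share.

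In sham kidneys the tKO libraries had lower nuclear subunits. By edgeR 0 members were higher and 41 of 85 lower in tKO sham than in fl/fl sham, beside 5.76% and 6.57% of all genes (12.3% in either direction), with a median log2 fold change of -0.51. Libraries did not overlap in 60 members lower and 1 higher, beside 16.2% and 14.1% of all genes. DESeq2 called 0 members higher and 47 lower, beside 1665 and 1666 of all 19256 genes. There were 58 members with an unadjusted edgeR p under 0.05. The summed member level had a ratio of 0.682, with 0.543 for complex II, 0.631 for complex V, 0.680 for complex IV, 0.712 for complex I and 0.724 for complex III. With TMM, the sums of each complex were separate between the groups; with the deposited FPKM, those of complexes I and III overlapped.

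All 4 subunits of complex II were lower. Sdha had 347, 218 and 219 CPM in tKO sham, against 482, 517 and 534 CPM in fl/fl sham (log2 fold change -0.97 ± 0.21, edgeR adjusted p = 0.0121). Sdhd had 157, 74.3 and 71.4 CPM against 222, 233 and 240 CPM (log2 fold change -1.19 ± 0.28, edgeR adjusted p = 0.0173). In both, the library labelled tKO sham replicate 1 was the nearest to fl/fl. Sdhb stood at -0.68 and Sdhc at -0.66 (edgeR adjusted p = 0.0163 and 0.00463).

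In the other complexes the largest falls among called members were those of Ndufb6 at -1.01 ± 0.27, Uqcrfs1 at -0.79 ± 0.18, Cox5a at -1.19 ± 0.34 and Atp5mc3 at -1.17 ± 0.29 (edgeR adjusted p = 0.0262, 0.0144, 0.0334 and 0.0197). Cox5a had 241, 101 and 72.4 CPM in tKO sham against 309, 322 and 319 CPM in fl/fl sham. Its spread within tKO sham is wide, again through the library labelled replicate 1. Atp5f1b stood at -1.0 ± 0.29 and Cox4i1 at -0.80 ± 0.19 (edgeR adjusted p = 0.0361 and 0.0163). Without the library labelled tKO sham replicate 1, 52 members were lower and 0 higher, among them 4 of 4 in complex II and 22 of 38 in complex I. The calls among all 19742 genes then tested also rose, to 2358 lower and 1877 higher, against 1266 and 1109 of 19256 with it.

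The count of members lower was fragile otherwise, as was that of all genes. It was 5 without tKO sham replicate 2, 15 without tKO sham replicate 3, 25 without fl/fl sham replicate 1, 11 without fl/fl sham replicate 2 and 14 without fl/fl sham replicate 3. All genes lower then numbered 210, 556, 715, 416 and 490, in that order, against 1266 with all libraries. The count of members was 0 with column totals, where 222 of all genes were lower, and 0 in a fit of these 2 groups alone, where only 3 genes of 16526 were lower and 3 higher. Of the members named here, the call of Sdhc was kept through all 6 of these omissions, and that of Sdha and Uqcrfs1 ended without tKO sham replicate 2.

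In obstructed kidneys, tKO and fl/fl overlapped in the level of the whole chain. Single subunits were called, but the share of members called in either direction lay near that of all genes. The summed member level was 3743 to 4053 RPKM in tKO UUO and 3767 to 5218 RPKM in fl/fl UUO. By edgeR 4 of 85 members were higher and 13 lower, beside 8.27% and 9.65% of all genes (17.9% in either direction), with a median of -0.06 that turned to 0.09 without fl/fl UUO replicate 3 and to 0.05 with totals of nuclear genes. Libraries did not overlap in 20 members lower and 8 higher, beside 20.6% and 21.8% of all genes. Complex II and complex V were the 2 whose sums did not overlap, at ratios of 0.575 and 0.778. Complex II had 3 of 4 members lower, complex I 5 of 38, complex III 3 of 9, complex V 2 of 18 and complex IV 0 of 16.

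The catalytic head of ATP synthase held the largest fall. Atp5f1b had 308, 241 and 244 CPM in tKO UUO, against 846, 692 and 928 CPM in fl/fl UUO (log2 fold change -1.63 ± 0.30, edgeR adjusted p = 0.00346). Atp5f1a had 308, 264 and 286 CPM against 659, 575 and 740 CPM (log2 fold change -1.20 ± 0.17, edgeR adjusted p = 0.00116). Both pairs of groups are well apart. Atp5f1e of the same enzyme went the other way, at 117, 112 and 89.2 CPM in tKO UUO and 53.4, 50.3 and 111 CPM in fl/fl UUO, and overlapped (log2 fold change 0.57 ± 0.25, edgeR adjusted p = 0.118). It passed the threshold without fl/fl UUO replicate 3, at 1.03.

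Counts of Atp5f1b per count of Atp5f1e need no scaling between libraries. They restate the values of 2 genes seen to move apart, so they give no separate support. The mRNAs of these genes are 1916 and 421 bases long, and such a ratio does not take out a difference by mRNA length. The count ratios were 6.59 to 9.39 in tKO UUO with LY2109761 and 1.53 to 4.78 in fl/fl UUO with LY2109761. They were 2.15 to 2.74 in tKO UUO and 8.39 to 15.8 in fl/fl UUO, and 2.70 to 4.83 in tKO sham and 4.74 to 6.07 in fl/fl sham. The obstructed groups without the drug lie apart, with tKO low, and the 2 groups with the drug lie apart the other way round.

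**Figure D4:**
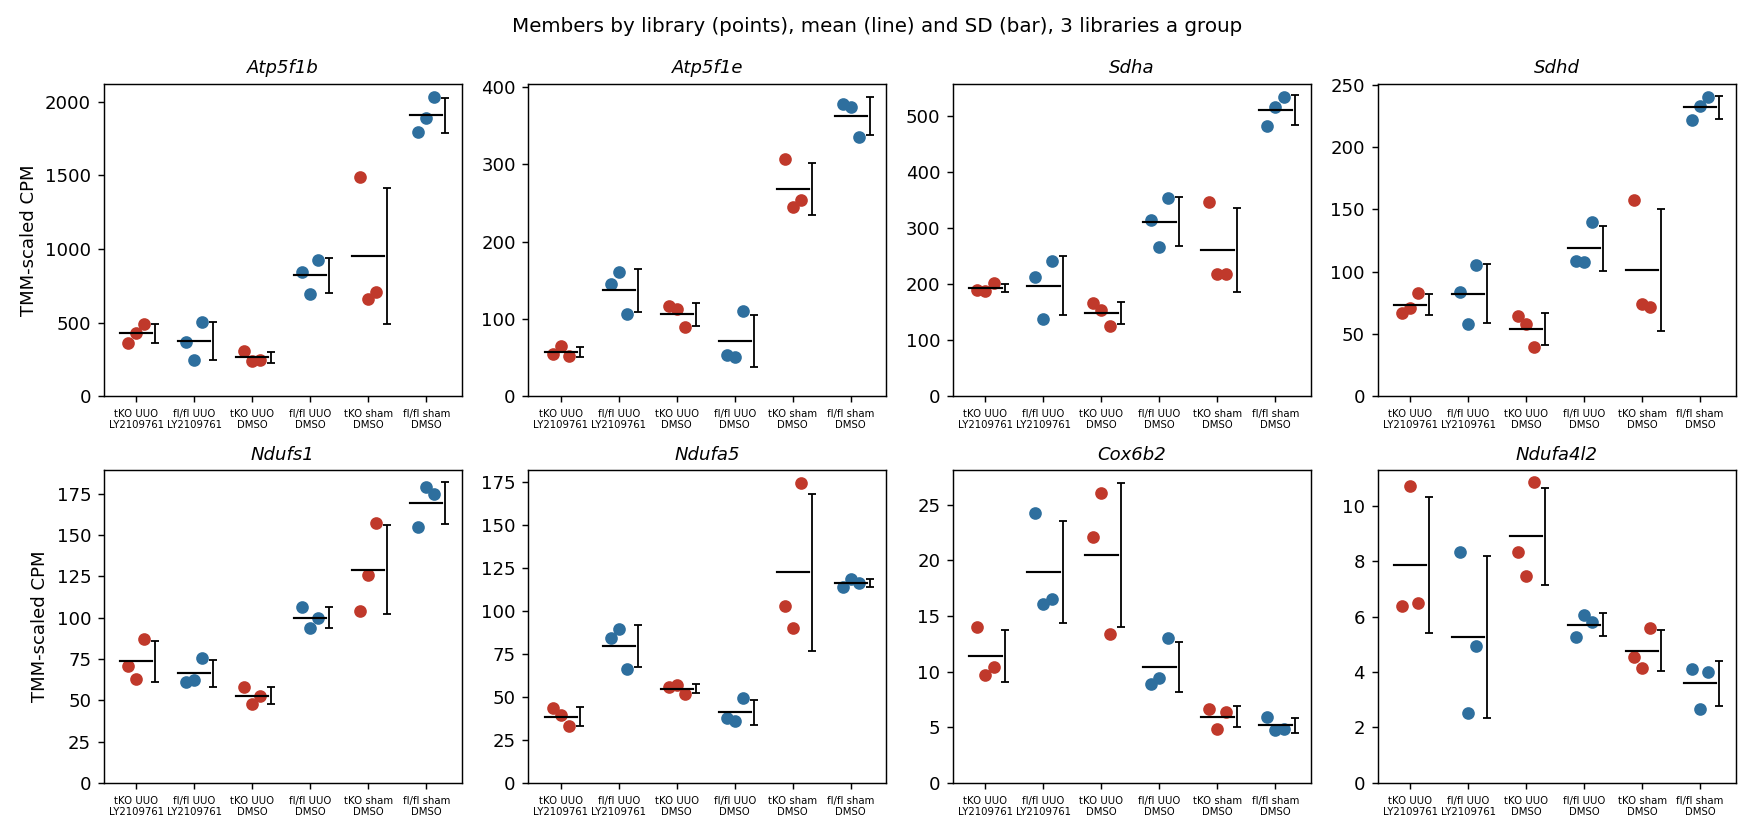
TMM-scaled CPM of 8 members in each library (points), with the group mean (line) and SD (bar, n = 3), by group, on axes that start at 0. Each tKO UUO library lies below each fl/fl UUO library in Atp5f1b, Sdha, Sdhd and Ndufs1, and the groups overlap in Atp5f1e.

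In complex II, Sdha had 166, 154 and 126 CPM in tKO UUO, against 315, 266 and 354 CPM in fl/fl UUO (log2 fold change -1.07 ± 0.21, edgeR adjusted p = 0.00468). Sdhd had 64.1, 58.1 and 39.2 CPM against 109, 108 and 140 CPM (log2 fold change -1.14 ± 0.28, edgeR adjusted p = 0.014), and Sdhc moved by -0.44 ± 0.11 (edgeR adjusted p = 0.0121). The groups do not overlap in any of the 4. Sdhb did not pass, at -0.46 ± 0.16 (edgeR adjusted p = 0.0542). The call of Sdhd ended without tKO UUO replicate 3 or fl/fl UUO replicate 3, and that of Sdhc without tKO UUO replicate 3 or fl/fl UUO replicate 1.

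As a share of the summed member level, complex II took 3.36% to 4.02% in tKO UUO and 5.58% to 6.04% in fl/fl UUO. Such a share is also free of library scaling, but not of a difference by mRNA length. For complex II, other groups are given next. Complex II took 3.59% to 4.12% in tKO sham and 4.78% to 4.84% in fl/fl sham, and 4.53% to 5.30% in tKO UUO with LY2109761 and 3.42% to 4.29% in fl/fl UUO with LY2109761. The genotypes lie apart in all 3 settings, tKO lower in sham and UUO and higher with the drug.

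Elsewhere, Ndufs1 of complex I had 58.2, 47.6 and 52.8 CPM in tKO UUO, against 106, 93.9 and 99.8 CPM in fl/fl UUO (log2 fold change -0.92 ± 0.16, edgeR adjusted p = 0.00287). The core proteins of complex III, Uqcrc1 and Uqcrc2, moved by -0.63 ± 0.14 and -0.67 ± 0.14 (edgeR adjusted p = 0.00776 and 0.00579). The 4 members that rose were Ndufb7, Ndufv3, Cox6b2 and Cox4i2. Ndufb7, an accessory subunit on the outer face of complex I, had 112, 131 and 124 CPM against 81.6, 77.3 and 97.0 CPM (log2 fold change 0.52 ± 0.13, edgeR adjusted p = 0.0123). Cox6b2 stood at 0.97 ± 0.25 and Cox4i2, the isoform tied to low oxygen, at 1.41 ± 0.44 (edgeR adjusted p = 0.0178 and 0.0358). Cox4i2 was scarce, at 1.18, 1.21 and 3.05 CPM in tKO UUO and 0.602, 0.63 and 0.804 CPM in fl/fl UUO, and its call ended without tKO UUO replicate 3 or any of the 3 fl/fl UUO libraries. The call of Cox6b2 ended without tKO UUO replicate 2, fl/fl UUO replicate 1 or fl/fl UUO replicate 2, and that of Ndufb7 without the first pair of these.

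The number of members lower was 7 without tKO UUO replicate 3, 8 without fl/fl UUO replicate 1 and 8 without fl/fl UUO replicate 3. All genes lower then numbered 987, 872 and 1239, in that order, against 1858 with all libraries. The number of members higher was 1 without tKO UUO replicate 2, 2 without tKO UUO replicate 3, 0 without fl/fl UUO replicate 1 and 1 without fl/fl UUO replicate 2. All genes higher then numbered 719, 928, 488 and 1184, in that order, against 1593 with all libraries. With column totals 3 members were lower and 0 higher, beside 317 and 363 of all genes. Of the members named here, the calls of Atp5f1a, Atp5f1b and Ndufs1 were kept with column totals.

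Under LY2109761 the fl/fl kidneys had 11 members higher and 3 lower than fl/fl UUO without it (edgeR, beside 2.52% and 2.62% of all genes, 5.15% in either direction), with a median of 0.26. Libraries did not overlap in 26 members higher and 7 lower, beside 16.3% and 15.4% of all genes. Atp5f1b had 370, 245 and 507 CPM with the drug, against 846, 692 and 928 CPM without (log2 fold change -1.14 ± 0.29, edgeR adjusted p = 0.0376). Atp5f1e had 145, 160 and 106 CPM against 53.4, 50.3 and 111 CPM, overlapping through its lowest and highest libraries (log2 fold change 0.94 ± 0.25, edgeR adjusted p = 0.0415). Ndufa5, an accessory subunit of the arm of complex I that faces the matrix, had 84.2, 89.3 and 66.1 CPM against 38.0, 36.0 and 49.3 CPM (log2 fold change 0.96 ± 0.21, edgeR adjusted p = 0.0244). Sdha, at 212, 138 and 241 CPM with the drug, did not pass (log2 fold change -0.66 ± 0.21, edgeR adjusted p = 0.0731). The other members lower were Atp5f1a at -0.70 and Ndufs1 at -0.59 (edgeR adjusted p = 0.032 and 0.0431). This comparison shares the fl/fl UUO libraries with that of tKO against fl/fl UUO. Among the 11 higher is Cox5b-ps, typed as protein-coding but near-identical to Cox5b, so the split of reads between the 2 is uncertain.

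These calls did not outlast the omission of single libraries. The number higher was 0 without fl/fl UUO with LY2109761 replicate 1, the library labelled fl/fl UUO with LY2109761 replicate 3 or fl/fl UUO replicate 1, 1 without fl/fl UUO replicate 2, 24 without fl/fl UUO replicate 3, and 14 without fl/fl UUO with LY2109761 replicate 4. The number lower was 0 without any of the first 5 of these libraries and 4 without the last. In the order given, all genes higher numbered 64, 0, 16, 99, 508 and 580, and all genes lower 52, 2, 31, 165, 384 and 689. With all libraries they numbered 486 and 505. The calls of Atp5f1b, Atp5f1e, Ndufa5, Atp5f1a and Ndufs1 all ended without any of the first 4 of these libraries. A fit of these 2 groups alone called 0 members in either direction, as did column totals. All genes higher and lower numbered 20 and 34 in that fit, and 11 and 14 with column totals.

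In tKO kidneys LY2109761 gave 0 calls by edgeR in either direction (all genes: 0.0831% higher, 0.0883% lower, 0.171% in either direction). Libraries did not overlap in 12 members higher and 21 lower, beside 12.8% and 12.7% of all genes. There were 14 members with an unadjusted p under 0.05. DESeq2 called 1 member higher and 3 lower, beside 424 and 474 of all 19256 genes. Atp5f1b had 361, 428 and 493 CPM in tKO UUO with the drug, against 308, 241 and 244 CPM without, with no overlap (log2 fold change 0.69 ± 0.29, edgeR adjusted p = 0.234). Atp5f1e had 54.9, 64.6 and 52.5 CPM against 117, 112 and 89.2 CPM, also without overlap (log2 fold change -0.89 ± 0.25, edgeR adjusted p = 0.107). Sdha had 190, 188 and 201 CPM against 166, 154 and 126 CPM (log2 fold change 0.38 ± 0.21, edgeR adjusted p = 0.364).

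The difference of the 2 drug effects was tested as a genotype by LY2109761 interaction. By edgeR 6 of 85 members were higher and 23 lower, beside 7.05% and 6.8% of all genes (13.8% in either direction), with a median of -0.37; the share of members higher lies at the background. Atp5f1b had an interaction of 1.83 ± 0.41 and Atp5f1e one of -1.83 ± 0.35 (edgeR adjusted p = 0.011 and 0.005). The 6 higher were Ndufs1, Sdha, Uqcrc1, Uqcrc2, Atp5f1a and Atp5f1b. Ndufs1 stood at 1.07 ± 0.22, Sdha at 1.04 ± 0.29 and Uqcrc2 at 0.80 ± 0.19 (edgeR adjusted p = 0.00752, 0.0291 and 0.0145). Of the 23 lower, 11 were subunits of complex I, led by Ndufa5 at -1.47 ± 0.29 (edgeR adjusted p = 0.00625). Cox6b2 at -1.71 ± 0.36 led complex IV and Uqcrq at -1.04 ± 0.31 complex III (edgeR adjusted p = 0.00775 and 0.0377).

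The interaction calls of Atp5f1b, Atp5f1e, Ndufs1, Ndufa5, Uqcrc2 and Cox6b2 were kept when each of the 12 libraries was left out in turn. Those of Sdha and Uqcrq ended in 7 of the 12 omissions each. With column totals 0 members were higher and 2 lower, beside 164 and 125 of all genes, and of the members named only the call of Ndufa5 was kept. The count of members lower was 12 without tKO UUO with LY2109761 replicate 3 or fl/fl UUO replicate 1, 13 without the library labelled fl/fl UUO with LY2109761 replicate 3, tKO UUO replicate 2 or fl/fl UUO replicate 2, and 15 without fl/fl UUO with LY2109761 replicate 1. All genes lower then numbered 652, 634, 626, 759, 915 and 786, in that order, against 1309 with all libraries. Without the library labelled fl/fl UUO with LY2109761 replicate 3, 4 members were higher, beside 714 of all genes. Beside this interaction, 4 of 12 proximal tubule markers were higher (median 0.97) and 4 of 10 fibroblast and pericyte markers lower (median -0.97). Among all genes 7.05% were higher and 6.8% lower. The part of these markers in the interaction was not tested.

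With the drug in both genotypes, tKO had 0 members higher and 23 of 85 lower than fl/fl (edgeR, beside 0.888% and 2.09% of all genes, 2.98% in either direction), with a median of -0.47. Libraries did not overlap in 56 members lower and 0 higher, beside 14.2% and 13% of all genes. No member of complex II was among the 23 called, though the libraries of Sdhb did not overlap. Atp5f1e led with 54.9, 64.6 and 52.5 CPM in tKO against 145, 160 and 106 CPM in fl/fl (log2 fold change -1.26 ± 0.25, edgeR adjusted p = 0.0222). Ndufa5 followed with 43.5, 39.4 and 32.9 CPM against 84.2, 89.3 and 66.1 CPM (log2 fold change -1.05 ± 0.21, edgeR adjusted p = 0.0226). In neither do the groups overlap. Uqcr10 stood at -0.88 ± 0.18 and Cox6c at -0.78 ± 0.19 (edgeR adjusted p = 0.0236 and 0.0391). Atp5f1b and Sdha, which were lower in tKO UUO without the drug, stood at 0.19 ± 0.29 and -0.03 ± 0.21 (edgeR adjusted p = 0.76 and 0.954). The count of 23 was 1 without tKO UUO with LY2109761 replicate 2 and 0 without tKO replicate 3, fl/fl replicate 1 or the library labelled fl/fl replicate 3 of the drug groups. All genes lower then numbered 25, 7, 66 and 14, in that order, against 402 with all libraries. The count of members was 0 with column totals, where 12 of all genes were lower, and 35 by DESeq2, where 944 were. The calls of the 4 named members ended in each of the 4 omissions. The comparison shares libraries with the drug comparisons above.

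The members that moved with genotype and drug under obstruction differed in mRNA length. Complex II has long mRNAs, with a median of 2066 bases, against 772 in complex I, 547 in complex III, 571 in complex IV and 596 in complex V (GENCODE M21, principal transcript). Across the 84 members with a length, which share all libraries, Spearman's rho of fold change with mRNA length was -0.45 for tKO against fl/fl UUO and -0.64 for the drug in fl/fl kidneys. It was 0.48 for the drug in tKO kidneys and 0.60 for the interaction, beside -0.04, -0.15, 0.12 and 0.16 over 15220 genes. For the interaction, the 32 members of at most 600 bases had a median of -0.65 and all 303 such genes one of -0.74. The 5 members over 2000 bases had a median of 1.04, and all 10320 such genes one of 0.04.

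**Figure D5:**
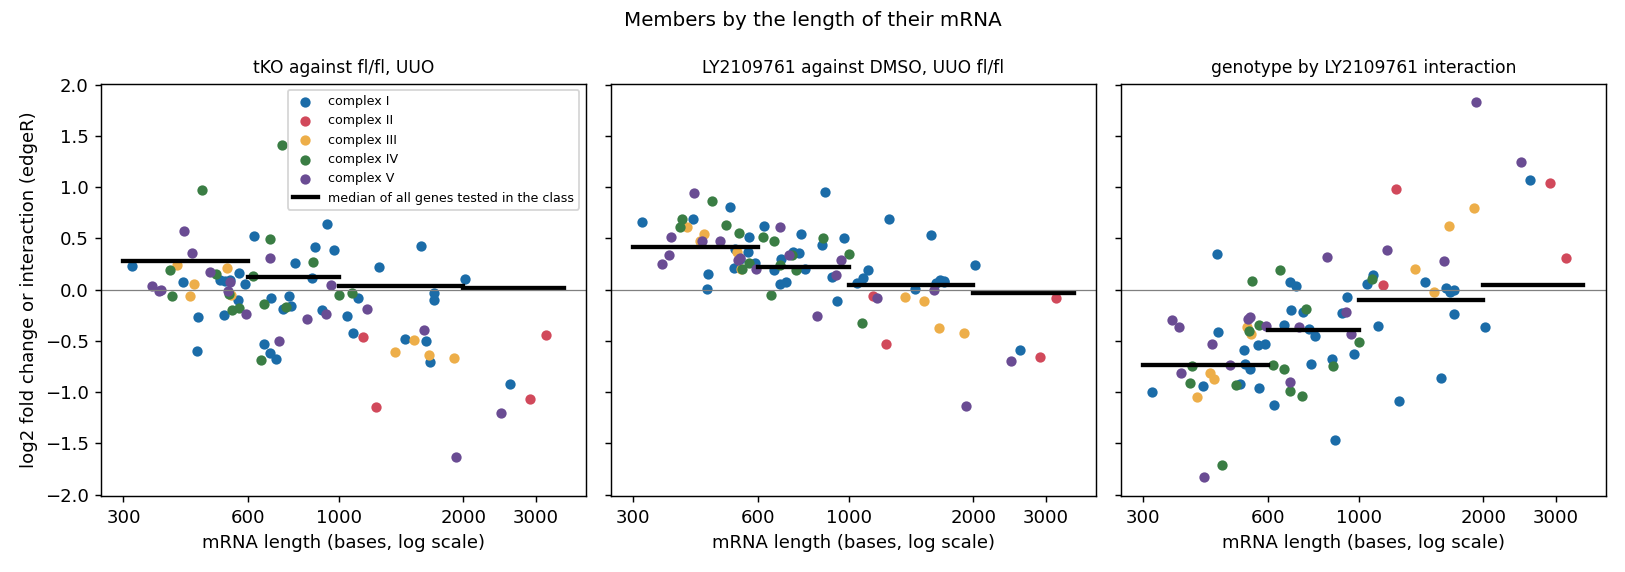
Log2 fold change or interaction of each member (points, coloured by complex) against mRNA length in bases (log axis), with the median of all genes tested in each of 4 length classes (black lines), in the comparisons named. In the genotype by LY2109761 interaction the members have a median of -0.65 in the shortest class and 1.04 in the longest, and all genes -0.74 and 0.04.

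An alternative chosen after seeing the data took out each library's median deviation in 20 classes of mRNA length. With it, the interaction had 8 of 84 members higher and 7 lower with a median of 0.03, beside 857 and 796 of all 15220 genes. For tKO against fl/fl with the drug it had 4 members lower, beside 146 of all genes. The drug in fl/fl kidneys had 2 members higher and 0 lower, beside 148 and 171 of all genes. The calls of Atp5f1b, Atp5f1e, Ndufa5, Ndufs1 and Atp5f1a in that comparison ended. For tKO against fl/fl UUO the offset left 3 members higher and 22 lower, beside 1238 and 1466 of all genes, and all 4 members of complex II were lower. UUO against sham had 77 members lower in fl/fl and 72 in tKO kidneys, and tKO against fl/fl sham 28. The genes lower among all 15220 numbered 3344, 3548 and 1090, in that order.

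Genes that build or serve the chain were lower in part. In fl/fl UUO against sham, 8 of 15 assembly factors of complex I, 3 of 4 of complex II, 4 of 6 of complex III, 10 of 20 of complex IV and 2 of 4 of complex V were lower and none higher by edgeR, with medians between -0.82 and -0.54. Of 14 electron carrier genes (cytochrome c and ubiquinone synthesis) 9 were lower. Of 14 regulators of mitochondrial biogenesis, 1 was higher and 3 lower, with a median of -0.01, beside 20.9% and 18.7% of all genes. Ppargc1a, the coactivator PGC-1α, had 22.2 to 30.2 CPM in fl/fl UUO against 40.9 to 52.2 CPM in fl/fl sham, with no overlap. Of all genes, 26% lay lower without overlap in that comparison. Esrra, the nuclear receptor ERRα, had 22.2 to 38.4 CPM in tKO UUO against 60.5 to 87.9 CPM in fl/fl UUO, and was the 1 regulator of 14 called in that comparison, beside 17.9% of all genes.

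Markers of cell types moved beside the subunits. In fl/fl UUO against sham, 9 of 12 proximal tubule markers and 8 of 8 collecting duct markers were lower, beside 18.7% of all genes. There 11 of 12 macrophage and 5 of 10 fibroblast and pericyte markers were higher, beside 20.9% of all genes. In tKO UUO against fl/fl UUO, 6 of 12 proximal tubule markers were lower, beside 9.65% of all genes. The summed level of the 12 was 2032 to 2364 CPM in tKO and 3667 to 5820 CPM in fl/fl. There 4 of 10 fibroblast and pericyte and 4 of 12 macrophage markers were higher, beside 8.27% of all genes. Summed levels of these lists were 2585 to 4177 against 1372 to 1627 CPM, and 2063 to 4048 against 2172 to 2562 CPM. None of 8 loop and distal tubule or 8 collecting duct markers was called in that comparison (medians 0.24 and -0.23). In tKO sham against fl/fl sham, 2 of 12 proximal tubule markers were lower, at 10383 to 13612 against 10611 to 16584 CPM. In the same comparison 4 of 10 fibroblast and pericyte markers were higher, at 552.5 to 791 against 288 to 414 CPM. So were 2 of 8 loop and distal tubule markers. Among all genes 6.57% were lower and 5.76% higher in tKO sham. The part of these cells in the subunits' values was not tested.

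Cox8b, the heart and muscle isoform that is also abundant in brown fat, was too scarce to test. It had 2.09, 1.66 and 1.59 CPM in tKO sham, against 0.355, 0.296 and 0.0643 CPM in fl/fl sham, from 28, 16 and 8 counts against 5, 4 and 1. The brown fat gene Ucp1 had 2.09, 6.33 and 7.18 CPM in tKO sham against 0.924, 0.814 and 0.579 CPM in fl/fl sham. Cidea had 3.13, 4.26 and 2.59 CPM against 1.14, 0.44 and 0.32 CPM. The 5 fat genes listed (Ucp1, Cidea, Adipoq, Plin1 and Cfd) summed to 28.1 to 66.8 against 3.11 to 114 CPM. Of the fl/fl sham libraries, replicate 1 had 97.4 CPM of Cfd, and replicates 2 and 3 had 1.18 and 2.06 CPM. By edgeR 2 of these 5 genes were higher in tKO sham, beside 5.76% of all genes. Cox8b was also the only member among the 410 genes of the deposited whole-kidney table, which holds part of the genes, with 13, 53, 57 and 40 counts in Pcmt1 KO kidneys against 101, 244, 74 and 117 counts in wild-type kidneys. There all 4 KO counts lay below all 4 wild-type counts, but in FPKM the highest KO value was 9.74 and the lowest wild-type value 10.3. How genes were chosen for that table is not known here, so the separation gives no independent support. The part of brown or other fat in these values was not tested. No member was among the 379 genes of the deposited table of HK-2 cells, a human proximal tubule line.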

How the data were processed

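Total RNA was made into mRNA-seq libraries, per the labels' protocols. The authors deposited raw read counts per gene for the 18 obstruction libraries, with FPKM values beside them, per the file headers. Tools listed per the submitters' processing notes are StringTie, HISAT2 and fastp, with GRCm38 and mm10 as mouse builds; the counting step, strand setting and versions are not given in the sources used here. Only 1396 of 51884 shared gene IDs had the coordinates of GENCODE M21, so coordinates were taken from that annotation by gene ID.

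Counts were scaled by TMM and tested with edgeR 4.0.16 (R 4.3.3; quasi-likelihood, 1 model over 6 groups, 12 residual degrees of freedom), with Benjamini-Hochberg adjustment over 19256 genes kept by filterByExpr and a threshold of 0.05. Each fold change is on the log2 scale with its SE. The steps were tested on simulated data. RPKM used the table's own exonic lengths, recovered from counts and FPKM. The precision of a level is set by the depths given in the report and by 3 libraries a group.

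The members and the gene lists were chosen with earlier results of these data known. Named were the subunits of complex II, core, catalytic, F1 and c-ring subunits, tissue isoforms with their common partners and, per complex and comparison, the called members with the largest change each way among those of mean CPM at least 5. Members of largest change, Uqcrc2 and Ndufb7 among them, were thus picked by their values. Members outside this rule were picked after their values were seen. Alternatives were column totals, totals of nuclear genes, TMM without mitochondrial genes, no filter on low counts, RLE size factors, DESeq2 1.42.0, the deposited FPKM, Ndufa4 counted with complex IV, a fit of only the groups compared, a replicate block, omission of each library and, chosen after seeing the data, an offset by mRNA length. The HK-2 and whole-kidney tables hold part of the genes and entered no test. Values of 1 member are not reported here.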

Additional observations from a re-analysis of the deposited data

Results flagged for a closer look

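The effect of LY2109761 differed between genotypes in 6 members that were higher and 23 that were lower in the genotype by LY2109761 interaction (edgeR adjusted p under 0.05), which is a test of the difference itself. Among all genes 7.05% were higher and 6.8% lower, so the share of members higher lies at the background. Atp5f1b had a log2 interaction of 1.83 and Atp5f1e one of -1.83. Ndufs1 stood at 1.07, Sdha at 1.04 and Uqcrc2 at 0.80. Cox6b2 stood at -1.71, Ndufa5 at -1.47 and Uqcrq at -1.04. Members with long mRNAs lay on the higher side and members with short mRNAs on the lower side, and the part of mRNA length in these values was not tested beyond the offset described in the report.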

How the results depend on the processing

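Column totals gave 2 members higher and 29 lower for UUO in fl/fl, 10 higher and 2 lower for UUO in tKO, 0 lower for tKO sham, 0 higher and 3 lower for tKO UUO, 0 lower for tKO with the drug, 0 higher and 0 lower for the drug in fl/fl, and 0 higher and 2 lower for the genotype by LY2109761 interaction. Of all 19256 genes, column totals called 8544 higher and 906 lower for UUO in fl/fl, and 11678 higher and 715 lower for UUO in tKO. They turned Sdha to 0.024 for UUO in fl/fl and, for UUO in tKO, the member median to 0.077, Cox4i1 to 0.33, Sdha to 0.17, Sdhc to 0.50 and Sdhd to 0.015. Totals of nuclear genes gave 2 higher for UUO in fl/fl, 22 lower for tKO sham and 12 lower for tKO with the drug, and a median of 0.046 for tKO UUO. TMM without mitochondrial genes gave 1 higher for tKO sham. Without the filter there were 1 higher for tKO sham, 2 higher for tKO UUO, 6 lower for tKO with the drug, 3 higher and 0 lower for the drug in fl/fl and 13 lower for the interaction. Fits of only the groups compared gave 2 higher for UUO in fl/fl, 0 lower for tKO sham, 1 higher for tKO UUO, 13 lower for tKO with the drug and 0 and 0 for the drug in fl/fl. DESeq2 gave 35 lower for tKO with the drug, 20 higher and 5 lower for the drug in fl/fl, and 1 higher and 3 lower for the drug in tKO. Of all 19256 genes, it called 944 lower, 990 higher and 1082 lower, and 424 higher and 474 lower, in that order. The length offset, chosen after seeing the data, gave 1 higher for UUO in tKO, 22 lower for tKO UUO, 4 lower for tKO with the drug, 2 higher and 0 lower for the drug in fl/fl and 7 lower for the interaction, with medians of 0.040 for the drug in tKO and 0.034 for the interaction. Of all 15220 genes, the offset called 3315 higher for UUO in tKO, and its other counts of all genes stand in the report. With the deposited FPKM the ratio of UUO to sham in tKO was 1.01 for complex I, 1.13 for complex IV, 1.01 for complex V and 1.03 for all members, and the ratio for complex V with the drug was 0.971 in fl/fl and 0.989 in tKO. The cause was not tested.

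Leaving out each library gave, for UUO in fl/fl, 1 higher and 76 to 80 lower; for UUO in tKO 1 to 2 and 64 to 70; for tKO sham 0 to 1 and 5 to 52; for tKO UUO 0 to 5 and 7 to 16, with medians of -0.14 to 0.089; for tKO with the drug 0 and 0 to 21; for the drug in fl/fl 0 to 24 and 0 to 4; for the drug in tKO 0 and 0; for the genotype by UUO interaction 0 to 8 and 0; and for the genotype by LY2109761 interaction 4 to 6 and 12 to 26.

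Replicate numbers did not pair the libraries: over 19 same-numbered pairs the correlation of deviations ran from -0.13 to 0.12. With a replicate block, 1 member was higher for UUO in tKO and 5 were lower for tKO with the drug.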
